A study of Mus musculus with 9 samples.

Results

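The genes described here encode the plasminogen activators Plat (tissue type) and Plau (urokinase type), the urokinase receptor Plaur, and the thrombin receptor thrombomodulin, Thbd. They were taken as every probe set whose platform gene symbol is Plat, Plau, Plaur or Thbd. That gave 5 probe sets of 12422 that are not controls, or 4 genes of 8251 with a probe set of their own: 93981_at for Plat, 97772_at for Plau, 102663_at for Plaur, and 104601_at and 162023_f_at for Thbd. The suffix f marks a probe set whose probes may also match related sequences, as do 1075 of the 12422. RNA came from F9 cells, a mouse embryonal carcinoma line, on 9 oligonucleotide arrays, 3 in each group. The groups were cells given retinoic acid (RA) at 0.5 µM for 24 h, cells given trichostatin A (TSA), which inhibits histone deacetylases, at 0.07 µM for 24 h, and cells given ethanol vehicle for 24 h. The same vehicle arrays serve both treatments, so the comparisons with vehicle share their control samples. All arrays come from 1 cell line, and nothing in the labels tells whether the 3 replicates of a group were grown as separate cultures. The p-values therefore reflect the scatter of these arrays alone, part or all of which may be technical.

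Plasminogen is a circulating zymogen that Plat and Plau cleave to plasmin, a protease that dissolves fibrin and breaks down extracellular matrix. Plaur holds Plau at the cell surface, while thrombomodulin binds thrombin and turns it from a clotting enzyme into an activator of protein C. F9 cells make a primitive endoderm-like cell with RA and a parietal endoderm-like cell when cyclic AMP is raised as well, and secreted plasminogen activator and thrombomodulin are classical markers of that differentiation.

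Each deposited value is a linear ratio to the mean of the 3 vehicle arrays for that probe set, so vehicle averages 1 by construction. Ratios keep no brightness, so the levels of these genes cannot be ranked against each other, and a high ratio may come from a probe set that was barely lit in vehicle. In bulk RNA, a change in the number of expressing cells and a change in RNA per cell cannot be told apart. Changes are given on the log2(ratio + 0.05) scale with limma's standard error (SE), and "changed" means a Benjamini-Hochberg adjusted p under 0.05 over all 12422 probe sets. Array medians ran from 0.862 to 0.915 in RA, 0.821 to 0.878 in TSA and 0.975 to 1.02 in vehicle, and the median probe set changed by -0.12 in RA and -0.17 in TSA against vehicle. The median of 3 probe sets for 18S ribosomal RNA was 0.961 on RA replicate 3, 2.40 on vehicle replicate 3 and 0.538 on vehicle replicate 1, against 0.0336 to 0.073 on the other 6 arrays.

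Of these genes, only Plat passed the test, and it rose with both compounds. Plaur was higher on all TSA arrays than on any vehicle array without passing. The treated arrays of Plau lay within the vehicle range, and the 2 Thbd probe sets gave different pictures. The RefSeq promoter table (GRCm38.p6) matched 1 of the 4 genes, Plaur, whose 250 bases before the start are shown because its TSA values stand apart from vehicle. The window lies at chr7:24462233-24462482 on the + strand. Capitals mark the matches to 2 of the 5 motifs searched on both strands.

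Plaur promoter: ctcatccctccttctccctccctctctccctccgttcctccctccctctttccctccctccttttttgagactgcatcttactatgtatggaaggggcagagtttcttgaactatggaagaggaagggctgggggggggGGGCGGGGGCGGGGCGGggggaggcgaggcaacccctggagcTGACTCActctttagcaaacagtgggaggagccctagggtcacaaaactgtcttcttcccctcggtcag

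The run of 3 GC boxes (GGGCGG, bound by Sp1 family factors), whose neighbours share or adjoin bases, starts 111, 105 and 100 bases before the start site, and the AP-1 site (TGACTCA, bound by Fos and Jun dimers) starts 69 bases before it. A GC box stood in 32.7% of the 32851 RefSeq windows of this length and an AP-1 site in 4.46%. TATAAA (12.4% of windows), the nuclear receptor half-site AGGTCA (14%) and the cyclic AMP response element TGACGTCA (1.55%) were not among the letters of this window. Only these exact letters were searched, so other spellings of the same sites were not looked for. The marked matches describe the sequence and not factor binding, which was not measured.

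Plat, the tissue-type activator, read 6.65, 4.40 and 5.71 times the vehicle mean on RA replicates 1, 2 and 3. It read 8.01, 20.5 and 8.94 on the TSA arrays and 0.829, 0.501 and 1.67 on the vehicle arrays. All 3 groups were separate, with TSA highest, RA next and vehicle lowest, and TSA replicate 2 stood far above the other TSA arrays.

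In RA against vehicle, Plat averaged 5.58 ± 1.13 and 1 ± 0.603 (SD, n = 3 each), a log2 change of 2.56 (SE 0.479, 95% interval 1.47 to 3.66, adjusted p = 0.0435, limma). It was the 46th highest of the 12422 changes. In TSA against vehicle it averaged 12.5 ± 6.99 and 1 ± 0.603 (SD, n = 3 each), a log2 change of 3.60 (SE 0.479, interval 2.51 to 4.70, adjusted p = 0.00783, limma), the 30th highest. So 1 of 5 probe sets changed with each compound, against 1.36% of all probe sets in RA and 3.48% in TSA. RA and TSA did not overlap for Plat, yet their difference of -1.04 (SE 0.479, interval -2.13 to 0.0533) did not pass, with an adjusted p of 0.317 in limma.

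The RA rise of Plat lay near the threshold. The call held in 2 of 9 fits that each left out 1 array, without vehicle replicate 3 or TSA replicate 2, while the log2 change stayed between 2.18 and 3.0 (adjusted p 0.0248 to 0.156, limma). Vehicle replicate 3 had both the highest 18S signal and the highest Plat ratio of its group. Without that array and RA replicate 3 together the RA change was 2.97, with an adjusted p of 0.0757 in limma. The TSA call held in all 9 leave-one-out fits, with log2 changes of 3.18 to 4.04 and adjusted p of 0.00853 to 0.0299 (limma).

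**Figure D1:**
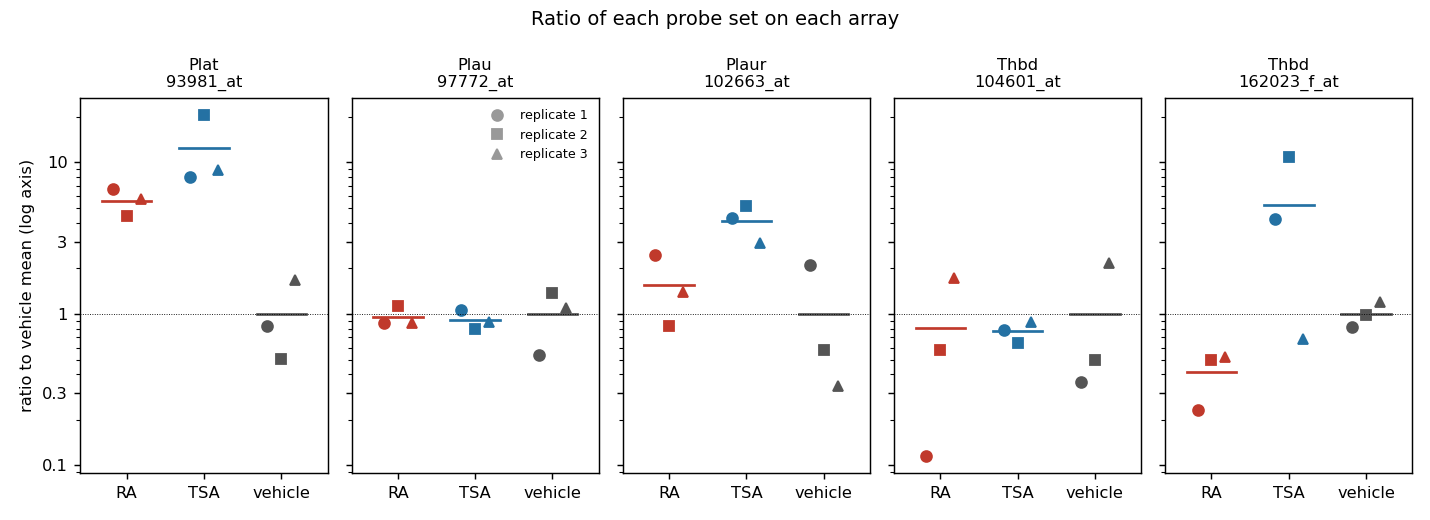
Ratio to the vehicle mean (log axis) of each probe set on each array, in RA, TSA and vehicle; symbols mark replicate numbers, bars are group means and the dotted line is 1. Plat separates all 3 groups, while Thbd 104601_at overlaps in all of them.

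Plau, the urokinase-type activator, read 0.875, 1.14 and 0.871 on the RA arrays. It read 1.05, 0.789 and 0.888 on the TSA arrays and 0.533, 1.38 and 1.09 on the vehicle arrays. The treated arrays of both groups lay inside the vehicle range, whose highest value was 2.59 times its lowest.

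The mean Plau ratio was 0.960 ± 0.151 in RA, 0.910 ± 0.133 in TSA and 1 ± 0.431 in vehicle (SD, n = 3 each). The log2 change was 0.031 in RA against vehicle (95% interval -0.717 to 0.778) and -0.042 in TSA against vehicle (interval -0.789 to 0.706), and RA minus TSA was 0.072 (interval -0.675 to 0.820). None passed limma's test (adjusted p 0.984, 0.961 and 0.951). The sign of all 3 differences turned under some settings.

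Plaur, the urokinase receptor, read 2.45, 0.828 and 1.39 on the RA arrays. It read 4.28, 5.19 and 2.92 on the TSA arrays and 2.09, 0.576 and 0.336 on the vehicle arrays. Every TSA array was above every RA and vehicle array, whereas RA and vehicle overlapped.

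In TSA against vehicle Plaur averaged 4.13 ± 1.14 and 1 ± 0.950 (SD, n = 3 each). The log2 change of 2.34 (SE 0.627, 95% interval 0.912 to 3.77) was the 121st highest of 12422 and did not pass, with an adjusted p of 0.0848 in limma. The vehicle arrays of Plaur differed by 6.21 times from lowest to highest, and their log2 SD of 1.27 exceeded that of 94.8% of probe sets. Without vehicle replicate 1, the high vehicle array, the TSA change was 3.05 and passed, with an adjusted p of 0.0246 in limma. In the other 8 leave-one-out fits it did not. Vehicle replicate 1 also had a raised 18S signal, at 0.538, and the part of the 18S signal in the Plaur values was not tested. In RA against vehicle the means were 1.55 ± 0.824 and 1 ± 0.950 (SD, n = 3 each) and the log2 change was 0.87 (interval -0.561 to 2.30, adjusted p = 0.629, limma). RA minus TSA was -1.47 (SE 0.627, interval -2.90 to -0.0422, adjusted p = 0.278, limma).

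**Figure D2:**
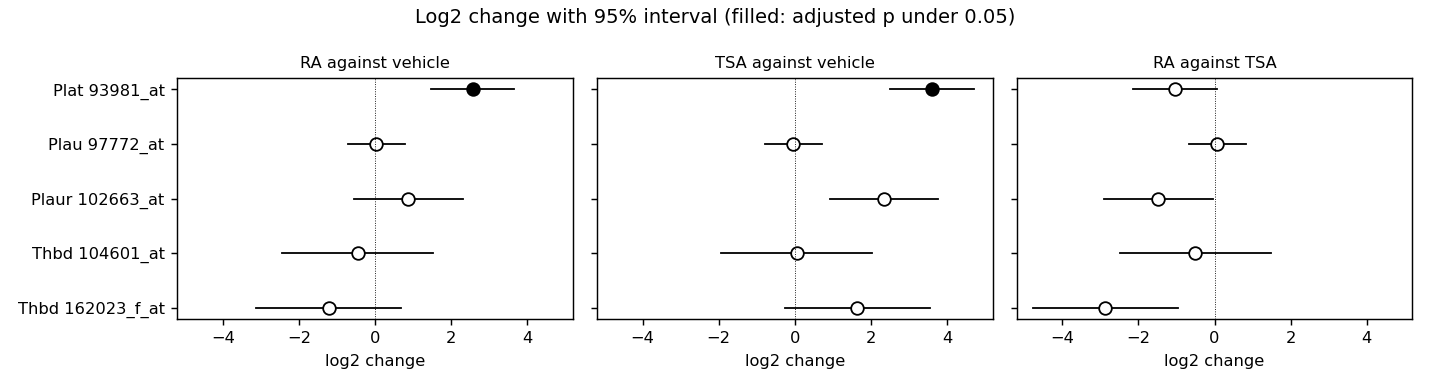
Log2 change (x axis) of each probe set in the 3 comparisons, with 95% intervals from limma; filled points have an adjusted p under 0.05. Plat is filled in both comparisons with vehicle (2.56 in RA and 3.60 in TSA), and no point is filled in RA against TSA.

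Thrombomodulin was read by 2 probe sets that did not move together. Probe set 104601_at read 0.116, 0.582 and 1.72 on the RA arrays. It read 0.779, 0.642 and 0.883 on the TSA arrays and 0.353, 0.493 and 2.15 on the vehicle arrays. The groups overlapped throughout, and RA replicate 3 and vehicle replicate 3, the 2 arrays with the highest 18S signal, were the highest of all 9.

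The mean ratio of 104601_at was 0.805 ± 0.824 in RA, 0.768 ± 0.121 in TSA and 1 ± 1.0 in vehicle (SD, n = 3 each). Its log2 SD exceeded that of 99.1% of probe sets in RA, 41.5% in TSA and 95.2% in vehicle. The log2 change was -0.46 in RA against vehicle (95% interval -2.45 to 1.52) and 0.050 in TSA against vehicle (interval -1.93 to 2.04), and RA minus TSA was -0.51 (interval -2.50 to 1.47). None passed limma's test (adjusted p 0.887, 0.984 and 0.836). The part of the 18S signal in these values was not tested. Without those 2 arrays the RA change was -0.53 and the TSA change 0.80, and neither passed (adjusted p 0.719 and 0.433, limma). The sign of all 3 differences turned when some single arrays were left out.

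Probe set 162023_f_at read 0.233, 0.495 and 0.519 on the RA arrays. It read 4.23, 10.8 and 0.685 on the TSA arrays and 0.820, 0.978 and 1.20 on the vehicle arrays. The 3 RA arrays lay below every other array, whereas TSA was split, with replicates 1 and 2 far above vehicle and replicate 3 below it.

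The mean ratio of 162023_f_at was 0.416 ± 0.159 in RA, 5.24 ± 5.13 in TSA and 1 ± 0.192 in vehicle (SD, n = 3 each). The TSA spread, a log2 SD of 1.97, exceeded that of 99.8% of probe sets. In RA against vehicle the log2 change was -1.22 (SE 0.832, 95% interval -3.12 to 0.674, adjusted p = 0.606, limma). That SE is shared by all groups, so the wide TSA spread enters it. Fitted on the RA and vehicle arrays alone, the same change had an SE of 0.340 and an adjusted p of 0.275 in limma. In TSA against vehicle the log2 change was 1.64 (SE 0.832, interval -0.256 to 3.54, adjusted p = 0.322, limma). RA minus TSA was -2.87 (SE 0.832, interval -4.77 to -0.969), the largest difference between the treatments among the 5 probe sets, with an adjusted p of 0.112 in limma. Without TSA replicate 3 the TSA change was 2.71 (adjusted p = 0.0446, limma) and RA minus TSA was -3.94 (adjusted p = 0.0128, limma). Without TSA replicate 2 the TSA change was 0.77, with an adjusted p of 0.700 in limma.

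The Thbd probe sets differed from each other by 0.76 on the log2 scale in their RA changes, 1.59 in their TSA changes and 2.36 in RA against TSA. Among the 1675 genes with exactly 2 probe sets, the median difference was 0.33, 0.36 and 0.36 in those comparisons. Thbd differed more than 79.8%, 94.4% and 98.7% of them. The share was much the same among the 460 such genes with a single f probe set, at 79.3%, 94.3% and 98.9%. The platform table gives an accession for 104601_at and none for 162023_f_at, and the part of related sequences in the f probe set was not tested. Averaged into 1 value, Thbd changed by -0.84 in RA and 0.85 in TSA against vehicle and by -1.69 in RA against TSA, with limma adjusted p of 0.628, 0.492 and 0.200 over 8251 genes.

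**Figure D3:**
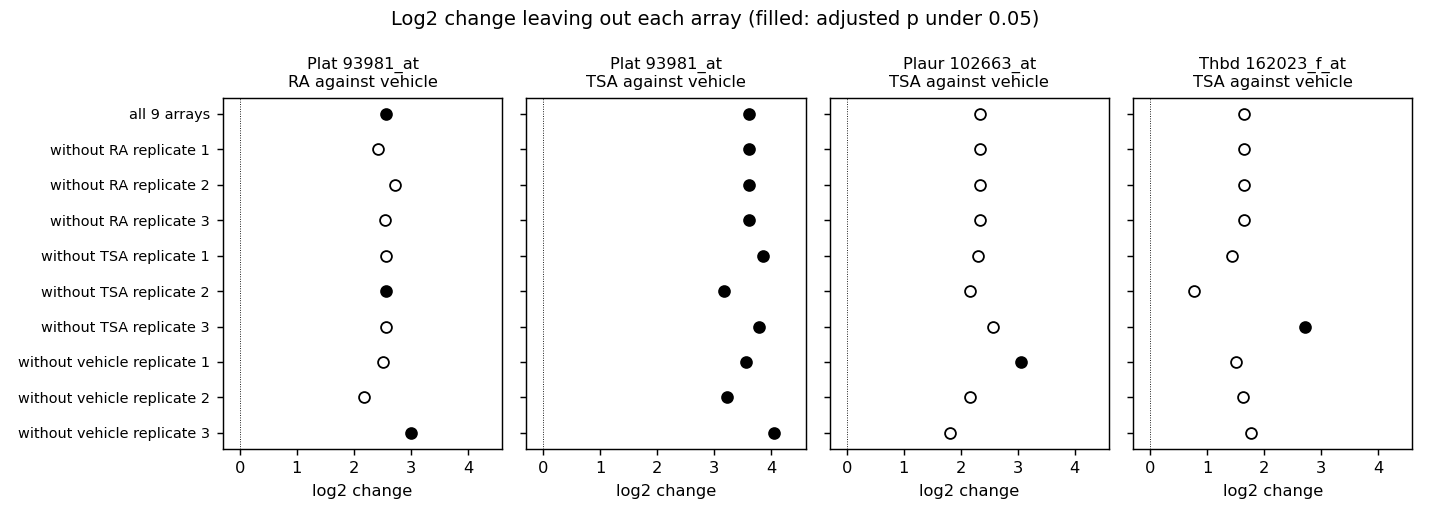
Log2 change (x axis) of Plat in RA, and of Plat, Plaur and Thbd 162023_f_at in TSA, all against vehicle, with all 9 arrays and with each array left out; filled points have an adjusted p under 0.05. Plat in TSA is filled throughout (3.18 to 4.04 without 1 array), Plat in RA in 2 of 9, and each of the others in 1 of 9.

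Across the 5 probe sets, RA and vehicle arrays did not overlap in 2 (Plat higher, Thbd 162023_f_at lower), as in 17% of all probe sets. TSA and vehicle did not overlap in 2 (Plat and Plaur, both higher), as in 26.3% of all. RA and TSA did not overlap in 3 (Plat, Plaur and Thbd 162023_f_at, all lower in RA), as in 27.3% of all. With 3 arrays against 3, an exact permutation test of 1 probe set cannot go below p = 0.1. None of the 5 changed in RA against TSA by limma's adjusted p, where 3.91% of all probe sets did; 2 of the 5, Plaur and Thbd 162023_f_at, had an unadjusted p under 0.05, as had 17.1% of all.

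The rest of the plasminogen and protein C pathway was read from a list of 49 genes, of which 43 had a probe set with a single symbol. These genes were fitted with 1 value per gene over 8251 genes. In RA against vehicle none rose and 1 fell, or 2.33% of the list, against 1.82% of all genes. In TSA 1 rose and 1 fell, or 4.65%, against 4.5% of all genes. In RA against TSA 2 were higher and 2 lower, or 9.3%, against 4.99% of all genes. The median log2 change of the list was -0.0072 in RA, -0.21 in TSA and 0.017 in RA against TSA, beside -0.12, -0.15 and 0.032 over all genes.

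Plg, the zymogen itself, averaged 0.880 ± 0.184 in RA, 0.857 ± 0.232 in TSA and 0.947 ± 0.570 in vehicle (SD, n = 3 each), and the groups overlapped. Its 5 measured inhibitors and related serpins moved between -0.34 and 0.32 in RA and between -0.49 and 0.69 in TSA on the log2 scale, and none passed. F3, tissue factor, which starts coagulation, averaged 1.31 ± 0.638 in RA, 1.41 ± 0.532 in TSA and 1 ± 0.255 in vehicle (SD, n = 3 each), with overlapping groups.

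Anxa2, annexin A2, binds Plat and plasminogen at the cell surface. It read 1.11, 0.754 and 0.895 on the RA arrays, 1.87, 1.94 and 2.15 on the TSA arrays and 1.06, 1.02 and 0.916 on the vehicle arrays. TSA stood above both other groups, which overlapped. Anxa2 rose in TSA by 0.96 (SE 0.189, adjusted p = 0.0264, limma) and RA minus TSA was -1.09 (SE 0.189, adjusted p = 0.0146, limma). These calls held in 4 and 5 of 9 leave-one-out fits. S100a10, the partner of annexin A2 in its heterotetramer, changed by -0.63 in TSA and did not pass (adjusted p = 0.148, limma).

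Procr, the endothelial protein C receptor, presents protein C to the thrombin and thrombomodulin complex. It read 0.537, 0.572 and 0.475 on the RA arrays, 1.37, 2.70 and 1.31 on the TSA arrays and 1.28, 0.906 and 0.813 on the vehicle arrays. RA lay below both other groups and TSA above both. RA minus TSA was -1.60 (SE 0.300, adjusted p = 0.0198, limma), held in 6 of 9 leave-one-out fits, while the changes of -0.84 in RA and 0.76 in TSA against vehicle did not pass (adjusted p 0.247 and 0.189, limma).

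F2r, the thrombin receptor that thrombin activates by cleavage, read 2.09, 1.62 and 1.34 on the RA arrays, 0.912, 0.796 and 0.702 on the TSA arrays and 1.10, 0.960 and 0.902 on the vehicle arrays. RA was highest and all groups but TSA and vehicle were separate, the lowest vehicle array falling just under the highest TSA array. RA minus TSA was 1.01 (SE 0.211, adjusted p = 0.0293, limma), while its 3 probe sets, at 0.76, 1.37 and 0.89, each missed the threshold singly. Lrpap1, the chaperone of the receptor Lrp1 that clears activator and inhibitor complexes, averaged 1.49 ± 0.211 in RA and 0.743 ± 0.0567 in TSA (SD, n = 3 each), a difference of 0.95 (SE 0.195, adjusted p = 0.0267, limma). Of its 2 probe sets, at 1.02 and 0.88, only the first passed singly. The F2r and Lrpap1 calls each held in 3 of 9 leave-one-out fits.

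Mmp10, stromelysin 2, a matrix metalloproteinase, read 0.0914, 0.0905 and 0.190 on the RA arrays, 0.264, 0.175 and 0.153 on the TSA arrays and 0.467, 0.755 and 1.78 on the vehicle arrays. Both treated groups lay below every vehicle array. Mmp10 fell by 2.44 on the log2 scale in RA (SE 0.444, adjusted p = 0.0311, limma) and by 1.91 in TSA (SE 0.444, adjusted p = 0.0472, limma), held in 3 and 1 of 9 leave-one-out fits, with adjusted p over all settings of up to 0.475 and 0.453. In the fit over 12422 probe sets, its single probe set passed in RA (adjusted p = 0.0421, limma) and not in TSA (adjusted p = 0.0599, limma). The other 8 matrix proteases and their inhibitors on the list ran from -1.16 for Mmp3 to 1.46 for Mmp9 in TSA, and none passed in any comparison.

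**Figure D4:**
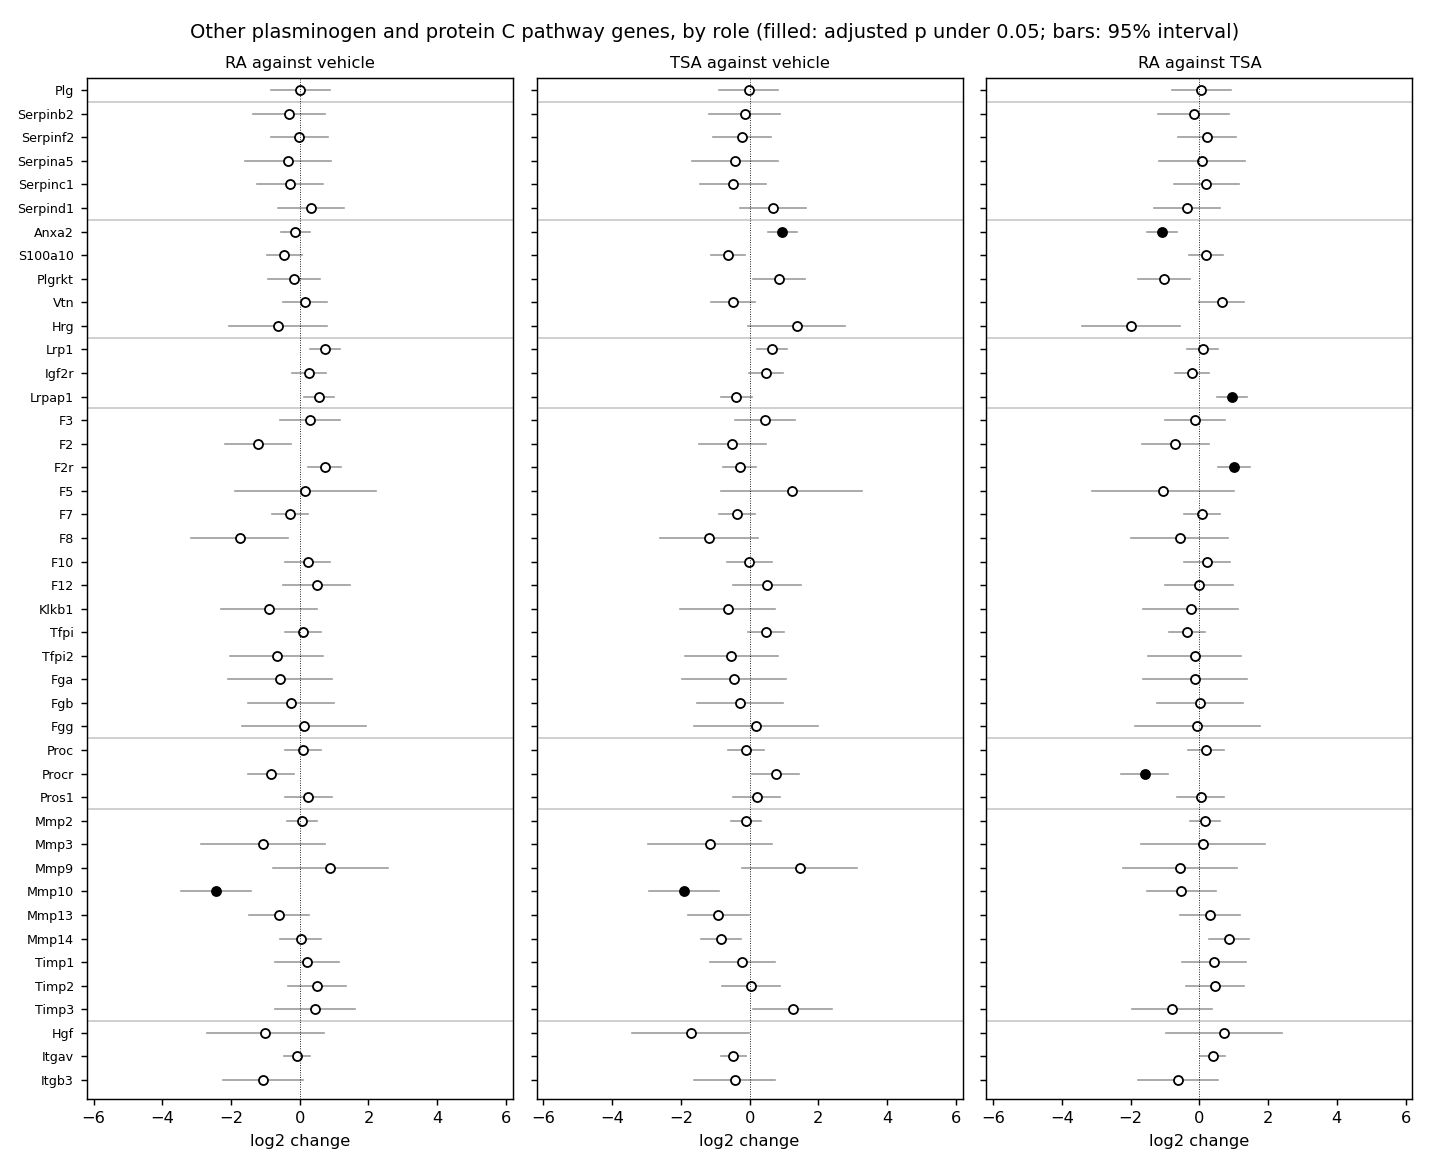
Log2 change (x axis) of the 43 measured pathway genes in the 3 comparisons, grouped by role between grey lines, with 95% intervals; filled points have an adjusted p under 0.05. Filled are Mmp10 in RA, Anxa2 and Mmp10 in TSA, and Anxa2, Lrpap1, F2r and Procr in RA against TSA.

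The genes nearest in pattern were those with the smallest root mean square difference of log2 values over the 9 arrays among 8247 other genes. Nearest to Plat were Prph (0.670), which encodes the neuronal intermediate filament peripherin, Fbp1 (0.672), a gluconeogenic enzyme, and Msx2 (0.709), a homeobox factor, against a median gene at 2.67. Prph averaged 10.3 times vehicle in RA and 8.39 in TSA, and Msx2 9.77 and 10.1. Nearest to Plaur were Hspa1a (0.504), an inducible heat shock protein, Kazald1 (0.552) and Tmem159 (0.560), against a median of 1.56. Hspa1a averaged 1.14 in RA and 4.77 in TSA. Nearest to the averaged Thbd were Kalrn (0.467), Rhbdl3 (0.512) and Tcte1 (0.531), with a median of 1.15. Nearest to the flat Plau were Gata4 (0.165), an endoderm factor, Mab21l2 (0.167) and Prkd2 (0.175), with a median of 0.584.

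Marker lists give the state of the cells. Of 6 embryonal carcinoma markers, 3 fell in RA and 2 in TSA, and the list mean was -1.37 to -1.20 in RA, -0.85 to -0.63 in TSA and -0.13 to 0.14 in vehicle on the log2 scale. Of 10 parietal endoderm markers, 2 rose (Lama1 and Serpinh1) and 1 fell (Fst) in RA, and 1 rose (Lama1) and 1 fell (Fst) in TSA. Their list means were 0.288 to 0.399 in RA, -0.145 to 0.00707 in TSA and -0.221 to 0.131 in vehicle. Endothelial cells also make Plat, Thbd and Procr: none of 8 endothelial markers passed in any comparison, and their mean was -0.108 to 0.407 in RA, 0.182 to 0.914 in TSA and -0.422 to 0.383 in vehicle. In TSA against vehicle 6 of the 8 had a positive log2 change. Cdh5 had the highest, at 1.84 (adjusted p = 0.0606, limma), with every TSA array above every vehicle array. None of 6 macrophage markers passed in any comparison, and their mean was -0.699 to -0.0598 in RA, -0.438 to -0.0435 in TSA and -0.414 to 0.540 in vehicle. Of 7 fibroblast markers, none changed in RA, while Thy1 and Col1a1 rose in TSA, and the list mean was -0.548 to -0.101 in RA, 0.566 to 0.795 in TSA and -0.761 to 0.357 in vehicle. In TSA against vehicle Thy1 changed by 3.00 and Col1a1 by 2.45, while the list median was 0.086, beside -0.15 over all genes. The other 5 fibroblast markers ran from -0.31 to 0.86 and did not pass. Lama1, a laminin chain of parietal endoderm basement membrane, averaged 2.26 ± 0.451 in RA, 2.21 ± 0.351 in TSA and 1 ± 0.186 in vehicle (SD, n = 3 each), above vehicle in both treatments as Plat was. Fst, of the same list, averaged 0.222 ± 0.0146 in RA and 0.278 ± 0.0891 in TSA (SD, n = 3 each), below vehicle in both. The laminin chains Lamb1 and Lamc1 averaged 0.775 and 0.801 in RA and 1.13 and 0.862 in TSA, and neither passed. Col4a1, a type IV collagen chain, averaged 2.69 ± 0.654 in RA, 0.848 ± 0.0845 in TSA and 1 ± 0.435 in vehicle (SD, n = 3 each), where RA lay above both other groups. The retinoid response gene Stra8 averaged 224 ± 14.9 in RA, 21.2 ± 5.21 in TSA and 1 ± 0.543 in vehicle (SD, n = 3 each), with every array of both treatments above every vehicle array. Cyp26a1, which degrades RA, averaged 61.5 ± 15.0 in RA, 3.09 ± 1.80 in TSA and 1 ± 0.457 in vehicle (SD, n = 3 each), with RA above both other groups and TSA overlapping vehicle. The part of other cell types in the Plat and Plaur values was not tested, and ratios do not show which markers were at background.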

How the data were processed

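Total RNA of 9 F9 samples was hybridised to Affymetrix arrays at a core facility and, for the vehicle samples, entered into GeneSpring, per the labels. The deposited value is a linear ratio to the vehicle mean: the vehicle arrays averaged 1 within 1e-05 in all 12488 probe sets. How the authors normalised and scaled the arrays is not given in the sources used here.

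Sample titles gave the groups and replicate numbers. The 66 control probe sets were left out, and ratios were not scaled further. Symbols came from the platform annotation, updated through Entrez IDs with RefSeq (GRCm38.p6). Of 12422 probe sets, 10833 had 1 symbol, 396 several and 1193 none; genes were named only from the first kind. One limma fit (version 3.58.1, R 4.3.3) of log2(ratio + 0.05) over all 9 arrays, without a variance trend and with 6 residual degrees of freedom, gave the 3 comparisons with Benjamini-Hochberg adjustment. Fold changes on this scale understate changes of low values. Pathway, marker and likeness values used the mean log2 value of a gene's probe sets.

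The naming rule took all probe sets of the 4 genes, every pathway gene past the threshold, Plg, Procr, F3 and Anxa2 whatever their value, 4 response genes (Stra8, Cyp26a1, Lama1, Col4a1) and the 3 genes nearest to each member. Other genes that the rule fixed are not reported here. S100a10, Mmp3, Mmp9, Thy1, Col1a1, Serpinh1, Fst, Lamb1, Lamc1 and Cdh5 were named after their values were seen. The members, lists and alternatives were chosen with earlier results of these data known. The fit was tested on simulated data with known changes in RA, independent arrays and the same spread in all groups. In the deposited data the median log2 SD differed, at 0.413 in vehicle, 0.311 in RA and 0.260 in TSA. The number of arrays limits the precision.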

Additional observations from a re-analysis of the deposited data

How the results depend on the processing

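Of 20 alternatives, the TSA rise of Plat held in 20 and its RA rise in 8. The number of the 5 probe sets changed in RA was 1 and became 0 with quantile normalisation, with only the 6 arrays compared, with a variance trend, with the replicate block and without both arrays with high 18S signal, where the adjusted p of Plat in limma was 0.0687, 0.0819, 0.0926, 0.0978 and 0.0757. The 18S setting left out vehicle replicate 3 and RA replicate 3 and kept vehicle replicate 1, whose 18S signal was 0.538. Array weights, whose estimation stopped before it converged, called 2196 of all 12422 probe sets in RA and 4494 in TSA. With them 3 of the 5 changed in TSA. Leaving out 1 array gave 0 to 1 in RA, 1 to 2 in TSA and 0 to 1 in RA against TSA. Of the pathway list, 1 gene changed in RA, 2 in TSA and 4 in RA against TSA. Quantile normalisation gave 0, 0 and 1, and the 6 arrays compared 0 in RA and 0 in TSA (6 in RA against TSA). Array weights gave 7 in RA and 16 in TSA, where calls over all probe sets also rose, to 2196 and 4494. The 30% filter on the mean ratio, which takes out genes that fell, gave 0 in RA and 1 in TSA. The variance trend gave 0 in RA and 1 in TSA, the replicate block 1 in TSA, and leaving out both high 18S arrays 1 in TSA and 2 in RA against TSA. Leaving out 1 array gave 0 to 1 in RA, 0 to 2 in TSA and 0 to 5 in RA against TSA.

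Among the named genes the RA and TSA calls of Mmp10 held in 9 and 5 of 18 settings, the TSA and RA against TSA calls of Anxa2 in 11 and 14 of 19, and those of Lrpap1, F2r and Procr in RA against TSA in 11, 12 and 15 of 19. Signs turned for Plau and Thbd 104601_at, whose changes passed in no setting. Plau in RA was -0.028 with quantile normalisation, -0.43 with array weights, and -0.35 and -0.090 without vehicle replicate 1 and RA replicate 2, within -0.35 to 0.30 over the 9 fits that leave out 1 array. Plau in TSA was 0.16 after centring, 0.063 without both high 18S arrays or without vehicle replicate 3, and 0.23 and 0.051 without vehicle replicate 2 and TSA replicate 2 (range over leave-one-out fits -0.42 to 0.23). In RA against TSA it was -0.048 and -0.020 without RA or TSA replicate 2 (range -0.048 to 0.18). Thbd 104601_at in RA was 0.28 and 0.43 without vehicle replicate 3 and RA replicate 1 (range -1.28 to 0.43), in TSA -0.43, -0.21 and -0.050 without vehicle replicates 1 and 2 and TSA replicate 3 (range -0.43 to 0.80), and in RA against TSA 0.38 without RA replicate 1 (range -1.33 to 0.38). The cause of these changes was not tested. Deviations of same-numbered arrays from their group means correlated between -0.032 and 0.289, not above 0.1 in every pair. Replicate 3 gave 0.289 in RA against vehicle, 0.237 in TSA against vehicle and 0.190 in RA against TSA. Replicate 1 gave 0.249 in RA against vehicle. The labels give only a number, and these values cannot tell whether same-numbered arrays shared a culture or a batch.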
